A study of Mus musculus with 8 samples.

Results

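Pan-leukocyte genes, which most white blood cells express whatever their lineage, were followed in the spinal cord of mice with experimental autoimmune encephalomyelitis (EAE), an immune-mediated model of multiple sclerosis. The group was the surface and membrane genes Ptprc, Cd53, Cd48 and Laptm5, the signalling genes Ptpn6, Hcls1 and Plek, the actin regulators Lcp1 and Coro1a, and the transcription factor gene Spi1. All probe sets that the array annotation gives to 1 of these 10 symbols were taken, whatever their values. This gave 13 of the 12422 probe sets tested, for 9 of the 8251 genes with a probe set of a single symbol. Plek, which encodes the protein kinase C substrate pleckstrin, had 0 probe sets in the annotation and was not analysed here.

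The EAE mice were SJL/J, with disease induced by an emulsion of proteolipid protein peptide under the skin of the flank, and the controls were healthy SJL/J given vehicle. Methods of the study add complete Freund's adjuvant with mycobacteria and pertussis toxin to the induction. All were female and 8 to 12 weeks old by the labels, where the study's array methods give 8 weeks, and perfused before the whole cord was taken. Each array held pooled RNA of 2 animals, so that 5 EAE arrays stood for 10 mice and 3 control arrays for 6 mice. By the labels EAE mice had an average clinical grade of 2.5, where the array methods give 2.5 to 3, and were killed between days 12 and 17. They had also been given murine serum albumin (0.1%) into a vein 3 h before death. No albumin is named for controls, so disease and albumin cannot be told apart. EAE array 1 shared batch 1 with control array 1, and likewise arrays 2 shared batch 2 and arrays 3 batch 3. EAE arrays 4 and 5 each had a batch of their own.

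CD45, the product of Ptprc, is a phosphatase that sets the activity of Src family kinases at antigen receptors, and it stands on nearly all nucleated blood cells. PU.1, the product of Spi1, is the transcription factor that myeloid cells and B cells need to form, and microglia depend on it too. Microglia, the resident macrophages of the cord, express most of these genes at rest, and T cells, B cells, monocytes and neutrophils that enter an inflamed cord express them as well.

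Upstream sequence of the 3 members with the largest changes that also hold the letters GAGGAA, the core of the PU.1 box, is shown to place those letters. Each is the 250 bases before the start of the gene, from RefSeq on GRCm38.p6, written 5' to 3' on the gene's strand. Capitals mark GAGGAA or its reverse complement TTCCTC. Of 2 Ptprc windows, the one with the letters is chr1:138175306-138175555 on the minus strand, and the other, chr1:138175127-138175376, holds 0 matches. The Cd53 window is chr3:106790150-106790399 on the minus strand, and the Laptm5 window is chr4:130913066-130913315 on the plus strand.
Ptprc: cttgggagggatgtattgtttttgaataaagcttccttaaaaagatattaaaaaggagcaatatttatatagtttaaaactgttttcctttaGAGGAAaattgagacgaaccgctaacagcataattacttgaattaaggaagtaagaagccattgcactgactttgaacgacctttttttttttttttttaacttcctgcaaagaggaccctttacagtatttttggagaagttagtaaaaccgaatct
Cd53: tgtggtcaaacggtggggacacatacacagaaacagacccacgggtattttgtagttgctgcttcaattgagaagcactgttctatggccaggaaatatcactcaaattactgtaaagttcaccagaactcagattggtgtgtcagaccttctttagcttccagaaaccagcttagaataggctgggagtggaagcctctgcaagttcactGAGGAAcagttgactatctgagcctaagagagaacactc
Laptm5: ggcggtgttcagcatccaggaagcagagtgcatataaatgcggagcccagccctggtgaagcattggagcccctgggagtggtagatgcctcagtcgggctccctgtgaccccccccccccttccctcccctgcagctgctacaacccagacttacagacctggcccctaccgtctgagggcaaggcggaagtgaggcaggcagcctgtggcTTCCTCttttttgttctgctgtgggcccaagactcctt

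GAGGAA on either strand was found in 4 of 12 windows of the 9 members with an entry (33.3%), against 7639 of 32851 windows of all genes (23.3%). These 9 are not the 9 measured genes: Plek is among them, while Spi1 had no entry and was not searched. The first base of the match lay 158 bases before the start in Ptprc, 39 in Cd53, 38 in Laptm5 and 61 in Plek. No other motif was searched, and a match is only a run of letters. The motif and the windows shown were chosen with the values known.

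Over all probe sets, 1026 were higher in EAE (8.26%) and 1412 were lower (11.4%) by limma, with treatment and batch as terms and Benjamini-Hochberg adjusted p under 0.05. The median log2 change over all probe sets was -0.05. Array medians lay between 6.08 and 6.13 on the log2 scale. Arrays correlated with one another at 0.975 to 0.991 in EAE and at 0.990 to 0.995 in control (Pearson). Replicates were pools of different animals, and 2 residual degrees of freedom were left for each probe set. With batch as a term the fitted change rests on the 3 batches that hold both groups, so EAE arrays 4 and 5 enter the group means and the exact tests but not the fitted changes. The exact tests regroup all 8 arrays and leave batch aside.

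Of the 13 member probe sets, 11 were higher in EAE (against 8.26% of all probe sets) and 0 were lower. At an unadjusted limma p under 0.05 the counts were also 11 and 0. All 9 measured genes were higher by their brightest probe set, where 9.19% of all genes were higher and 13.5% were lower. In 12 of the 13 probe sets every EAE array lay above every control array, which held for 10.9% of all probe sets. The median log2 change of the 9 brightest probe sets was 1.67, against -0.05 over all genes. Whole cord was measured, so more leukocytes and more RNA per leukocyte cannot be told apart.

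**Figure D1:**
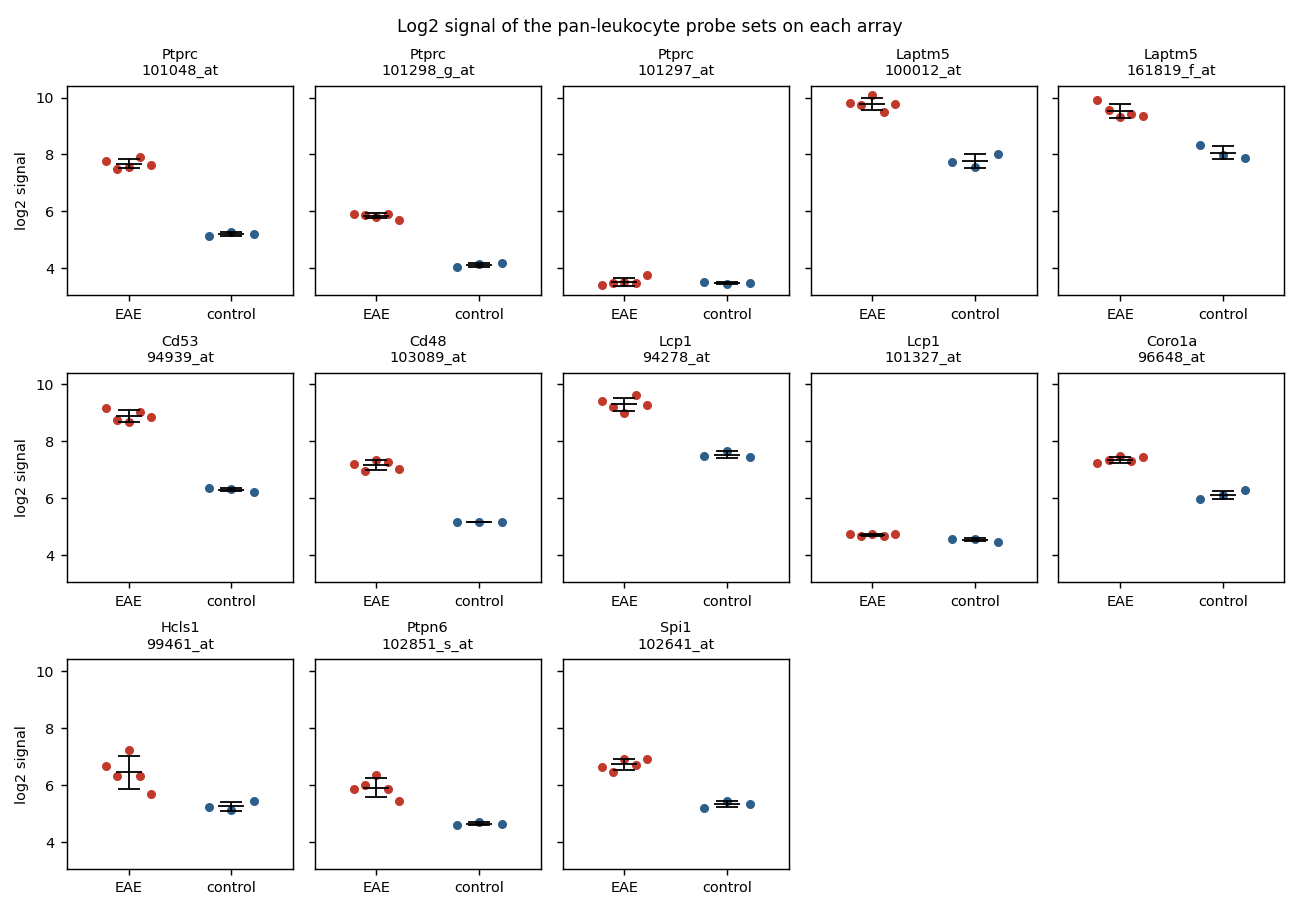
Log2 signal of the 13 member probe sets on each array, with the 5 EAE arrays on the left of each panel and the 3 control arrays on the right, and bars for the mean and SD. The groups are apart in every panel but that of the third Ptprc probe set, and the EAE arrays of Hcls1 and Ptpn6 are spread most.

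Ptprc was measured by 3 probe sets, and the brightest of them gave one of the larger changes of the group. Its log2 signal was 7.76, 7.50, 7.56, 7.90 and 7.64 on EAE arrays 1 to 5, against 5.12, 5.29 and 5.20 on control arrays 1 to 3. The EAE arrays stood well clear of the controls, and the spread within either group was small beside the gap. The log2 change was 2.40 (SE 0.100, 95% interval 2.15 to 2.66, limma adjusted p = 0.000403), a fold of 5.29 (4.43 to 6.31). Within batches 1, 2 and 3 the difference was 2.64, 2.21 and 2.36.

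The second Ptprc probe set moved the same way by less. Its log2 signal averaged 5.85 ± 0.084 in EAE (SD, n = 5) and 4.13 ± 0.070 in control (SD, n = 3), with a log2 change of 1.73 (SE 0.0741, limma adjusted p = 0.000421). The third averaged 3.53 ± 0.13 in EAE and 3.48 ± 0.029 in control. Its arrays overlapped, and the log2 change was -0.01 (95% interval -0.19 to 0.16, limma adjusted p = 0.937). It was among the dimmest probe sets of the array, with a mean signal at percentile 0.129 of all probe sets, so a change may not register there and its value is given as a description. The brighter 2 differed in their change by 0.67 (exact permutation p = 0.0179, 0.0223 after adjustment over 5 pairs of probe sets of 1 gene), and by 0.79, 0.48 and 0.73 within batches 1, 2 and 3. Which Ptprc transcripts each probe set reads was not tested.

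Cd53, a tetraspanin that organises receptors in the leukocyte membrane, had the largest change of the 9 genes. Its log2 signal was 9.18, 8.76, 8.67, 9.03 and 8.84 on EAE arrays 1 to 5, against 6.35, 6.32 and 6.24 on the control arrays. Every EAE array was at least 2.32 above the highest control, EAE arrays 1 and 4 being the highest. The log2 change was 2.57 (SE 0.102, 95% interval 2.31 to 2.83, limma adjusted p = 0.000346), or 5.93-fold (4.95 to 7.11). It ranked 99 among the changes of all 12422 probe sets.

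Cd48, a GPI-anchored ligand of the receptors CD2 and CD244, was nearly constant among the controls. The log2 signal was 7.21, 6.95, 7.34, 7.29 and 7.01 on EAE arrays 1 to 5, against 5.15, 5.16 and 5.17 on the control arrays. The groups were far apart, the change being 2.01 on the log2 scale (SE 0.0943, 95% interval 1.76 to 2.25, limma adjusted p = 0.000492), or 4.02-fold. Of its receptors, both looked up after the values were seen, Cd2 rose by 0.67 (limma adjusted p = 0.00608), while the log2 change of Cd244a was 0.23 (limma adjusted p = 0.151). The Cd244a probe set was dim, with a mean signal at percentile 4.64 of all probe sets, so a change may not register there.

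Laptm5 encodes a lysosomal membrane protein that lowers the surface level of antigen receptors in lymphocytes. On the brighter of its probe sets the log2 signal was 9.79, 9.75, 10.08, 9.49 and 9.79 on EAE arrays 1 to 5, against 7.74, 7.56 and 8.02 on the control arrays. Array 3 was the highest of both groups, and the groups did not overlap. The log2 change was 2.10 (SE 0.0689, 95% interval 1.93 to 2.28, limma adjusted p = 0.000231), or 4.29-fold (3.80 to 4.85). The other probe set changed by 1.53 (SE 0.0699, limma adjusted p = 0.000479), a difference of 0.57 between the probe sets. Within batches 1, 2 and 3 this difference was 0.46, 0.62 and 0.63, while the exact permutation test, which leaves batch aside, gave p = 0.107.

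Among the signalling genes, Ptpn6 encodes SHP-1, the phosphatase that inhibitory receptors recruit to end activation signals. Its log2 signal was 5.86, 6.02, 6.36, 5.85 and 5.43 on EAE arrays 1 to 5, against 4.60, 4.69 and 4.65 on the control arrays. All EAE arrays were higher, array 5 least and array 3 most. Ptpn6 rose by 1.43 on the log2 scale (SE 0.109, 95% interval 1.15 to 1.71, limma adjusted p = 0.00199), or 2.70-fold.

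Hcls1 encodes HS1, the blood cell counterpart of cortactin that links antigen receptor signals to actin. Its log2 signal was 6.68, 6.31, 7.24, 6.32 and 5.68 on EAE arrays 1 to 5, against 5.23, 5.12 and 5.43 on the control arrays. EAE array 5 was only 0.25 above the highest control, so this gene had the narrowest gap among the brightest probe sets, and its EAE SD of 0.57 was the widest. The log2 change was 1.48 with batch as a term (SE 0.128, 95% interval 1.16 to 1.81, limma adjusted p = 0.00300) and 1.19 without it. Within batches 1, 2 and 3 the difference was 1.45, 1.19 and 1.80.

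Lcp1 encodes L-plastin, the bundling protein of leukocyte actin. Its brighter probe set had a log2 signal of 9.40, 9.21, 8.98, 9.63 and 9.28 on EAE arrays 1 to 5, against 7.48, 7.66 and 7.45 on the control arrays. Every EAE array was higher, and arrays 1 and 4 were again the highest. The gene rose by 1.67 on the log2 scale (SE 0.101, 95% interval 1.41 to 1.92, limma adjusted p = 0.000991), or 3.18-fold. The other probe set averaged 4.72 ± 0.040 in EAE (SD, n = 5) and 4.54 ± 0.055 in control (SD, n = 3), and its change of 0.18 did not pass (limma adjusted p = 0.157), although its groups did not overlap. That probe set was dim, with a mean signal at percentile 11.3 of all probe sets, and whether it lay above background was not tested.

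Coro1a encodes coronin-1A, which binds the Arp2/3 complex and is needed for T cell migration and survival. Its log2 signal was 7.23, 7.34, 7.48, 7.31 and 7.43 on EAE arrays 1 to 5, against 5.99, 6.10 and 6.28 on the control arrays. It had the smallest change of the 9 genes, with the groups still apart. It rose by 1.23 on the log2 scale (SE 0.0631, 95% interval 1.06 to 1.39, limma adjusted p = 0.000672), or 2.34-fold, and it was 1.24, 1.24 and 1.20 within batches 1, 2 and 3.

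Spi1 had a log2 signal of 6.63, 6.45, 6.93, 6.71 and 6.92 on EAE arrays 1 to 5, against 5.22, 5.45 and 5.34 on the control arrays. No EAE array came near the controls. The log2 change was 1.34 (SE 0.127, 95% interval 1.01 to 1.66, limma adjusted p = 0.00386), or 2.53-fold (2.02 to 3.16). It was the weakest call of the 11 by adjusted p, and the difference within batches 1, 2 and 3 was 1.42, 1.00 and 1.59.

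For single values, the exact permutation test over the 56 regroupings of 8 arrays gave its smallest possible p, 0.0179, for 11 of the 13 probe sets. It gave 0.0357 for Hcls1 and 0.714 for the third Ptprc probe set. Without moderation of the variances across probe sets, with 2 residual degrees of freedom, 0 member probe sets passed (adjusted p 0.106 to 0.172 for those 11 that passed with it), and 1 of all probe sets did.

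By size of change the order was Cd53, Ptprc, Laptm5, Cd48, Lcp1, Hcls1, Ptpn6, Spi1 and Coro1a. Of the 8 differences between neighbours, which were 0.05 to 0.34 on the log2 scale, 0 had a 95% interval that excluded 0. Over all 36 pairs of genes, 23 intervals did, unadjusted. The ends of the order were apart, Cd53 exceeding Coro1a by 1.34 (1.01 to 1.68), while Cd53 exceeded Ptprc by 0.17 (-0.12 to 0.45). Probe sets can differ in how fully they register a change, so an order of log2 changes is not an order of transcript numbers.

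Relatives of the members that are not restricted to leukocytes were compared with them, such as Ptpra and Ptpre for Ptprc, other tetraspanins for Cd53 and other plastins and coronins for the actin regulators. Of 20 listed, 18 were measured, and their median log2 change was -0.00, with a range of -0.56 to 0.82. Cd63, the lysosomal tetraspanin, rose by 0.82 (SE 0.0895, limma adjusted p = 0.00563), and Coro1b and Coro1c rose by 0.63 and 0.29. Ptpra, Pls3 and Laptm4b, a phosphatase, a plastin and a lysosomal protein of many tissues, fell by 0.55, 0.50 and 0.39. All 6 of these calls were lost without the EAE or the control array of batch 3 (limma adjusted p 0.0525 to 0.201).

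The other 12 did not pass, among them Ptpn11, the ubiquitous SHP-2 phosphatase, with a change of 0.01 (95% interval -0.22 to 0.25), and the cortactin gene Cttn with -0.10. The Ptpn11 probe set was dim, with a mean log2 signal of 4.69 in EAE and 4.72 in control. Whether it lay above background was not tested, so a change may not register there. The member changed more than its relative in all 18 pairs. Several members, Cd53 among them, stood in more than 1 pair, so the pairs are not separate observations. Cd48 had no measured relative and is in none of them. As a difference of group means, without the batch term, this was 0.77 for Coro1a against Coro1b at the least and 2.93 for Ptprc against Ptpra at the most. With the batch term, as in the changes above, these 2 differences were 0.59 and 2.95. Lcp1 exceeded Pls3 by 2.19 between group means and by 2.16 with the batch term. For Ptpn6 over Ptpn11 the values were 1.28 and 1.42, and for Hcls1 over Cttn they were 1.25 and 1.58. By exact permutation, which tests the difference of group means, 16 pairs had p = 0.0179 and 2 had 0.0357, with adjusted values of 0.0201 to 0.0357 over 18 pairs. Within any batch the smallest difference was 0.37. Without control array 1 or control array 2, 0 pairs passed, against 16 to 18 pairs without any 1 of the other 6 arrays. Without any 1 control array 21 regroupings remained and p could not fall below 0.0476. That floor also held without control array 3, where 18 pairs passed.

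**Figure D2:**
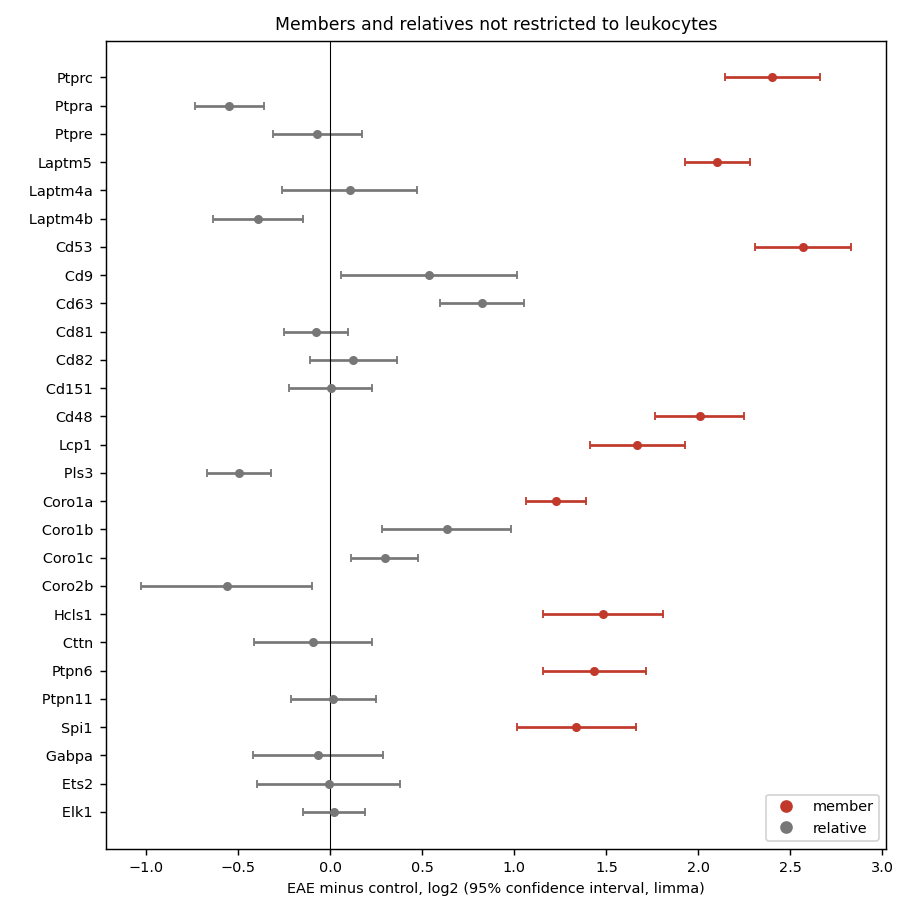
Log2 change, EAE minus control, of each member (red, brightest probe set) above its relatives (grey), with 95% limma confidence intervals. Cd48 had no measured relative and stands alone. Members lie between 1.23 and 2.57, and the relatives lie between -0.56 and 0.82.

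Among EAE arrays the members did not move as one. By their brightest probe sets, Laptm5, Cd48, Coro1a, Hcls1, Ptpn6 and Spi1 were highest in EAE array 3, taken at day 17. Deviations from the EAE mean there were 0.79 for Hcls1 and 0.46 for Ptpn6. Those 2 genes were lowest in EAE array 5 (-0.76 and -0.48). Ptprc, Cd53 and Lcp1 instead had EAE arrays 1 and 4, both of day 14, as their highest pair. The place of Laptm5 depends on the probe set. On its other one, nearly as bright, EAE array 3 was the lowest (9.32) and array 1 the highest (9.92). Each day of EAE has 1 or 2 arrays, so day and array cannot be told apart.

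The arrays also differed in RNA quality, read as the log2 signal at the 3' end of Gapdh less that at its 5' end. It was 1.46, 0.65, 0.46, 2.07 and 0.78 on EAE arrays 1 to 5, against 0.53, 0.97 and 0.93 on the control arrays, EAE arrays 4 and 1 being the highest. The same difference for Actb was 2.35, 1.63, 1.11, 2.79 and 1.83 on EAE arrays 1 to 5, against 2.20, 2.29 and 1.62 on the control arrays, where array 4 was again the highest and array 1 lay close to 2 of the controls. The part of RNA quality in the spread of Ptprc, Cd53 and Lcp1 was not tested. Array 4 does not enter the fit with the batch term, so both were left out of a fit without it. There 10 of the 13 member probe sets passed as higher, and 992 of all probe sets did. Hcls1 was the one lost, with a log2 change of 1.15 (limma adjusted p = 0.0715). Control array 3, of the same batch as EAE array 3, was the highest control for Hcls1, Coro1a and the brighter Laptm5 probe set. On the other Laptm5 probe set it was the lowest control (7.89). Averaged over the 9 genes, the level above the control mean was 1.82, 1.66, 1.92, 1.80 and 1.63 on EAE arrays 1 to 5, against -0.05, 0.00 and 0.05 on the control arrays.

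**Figure D3:**
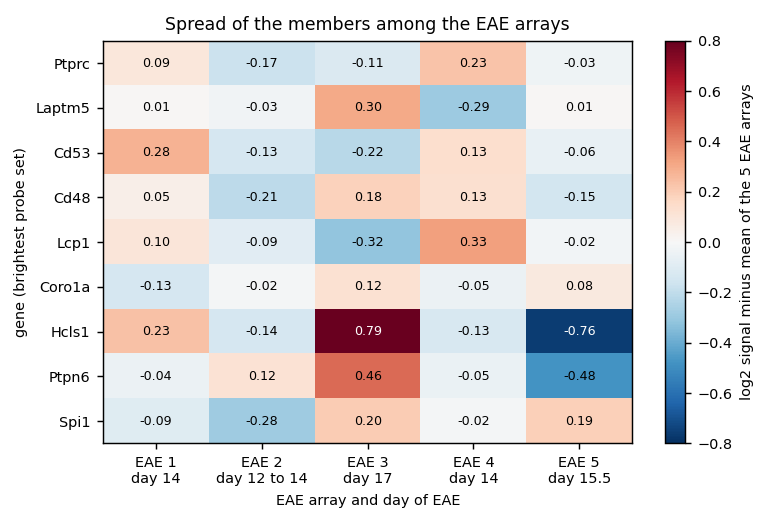
Log2 signal of each member (brightest probe set) less its mean over the 5 EAE arrays, one column for each EAE array with its day of EAE and one row for each gene. Hcls1 and Ptpn6 are high in array 3 and low in array 5, and Ptprc, Cd53 and Lcp1 are high in arrays 1 and 4.

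Other genes of the same pathways were taken from 7 lists, in which 135 of 168 genes were measured, 69 rose and 7 fell. Over all genes 9.19% rose and 13.5% fell, and the falls in each list were near or below the latter share. Of 26 measured genes known as targets of PU.1, 19 rose and 0 fell, with a median log2 change of 1.30. They included Lyz2 (lysozyme, 5.93), Mpeg1 (perforin-2 of macrophages, 3.41), Cyba (an NADPH oxidase subunit, 2.78) and Itgb2 (the beta 2 integrin chain, 2.76). Of 26 partner and lineage factors measured, 8 rose and 1 fell with a median of 0.20. Cebpd, Cebpb, Lyl1 and Irf8 rose by 3.51, 3.47, 2.55 and 2.23, and Ebf1, the B cell factor, fell by 0.36.

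Of 19 leukocyte adaptors and exchange factors, 12 rose and 0 fell, with a median of 0.76. Tyrobp, the DAP12 adaptor of myeloid and NK receptors, rose by 2.75, Lcp2 (SLP-76) by 1.64, Arhgdib by 1.58 and Dock2, a Rac exchange factor, by 1.38. Ptprcap, which binds CD45 in lymphocytes and was looked up after the values were seen, rose by only 0.37. Of 12 cytoplasmic tyrosine kinases, 5 rose and 2 fell, with a median of 0.12. Ptk2b, Syk, Jak3 and Fgr rose by 0.79, 0.73, 0.59 and 0.56, while the Src family members Fyn and Yes1 fell by 0.38 and 0.31. Without an array of batch 2 or batch 3 only 2 of these kinases rose and 0 fell.

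Of 13 inhibitory receptors, whose tails recruit SHP-1 or related phosphatases, 6 rose and 0 fell, with a median of 0.26. Fcgr2b, the inhibitory IgG receptor, rose by 4.70, Pirb by 1.42, Klra2 by 0.89 and Cd5 by 0.48, and the count was 2 without an array of batch 3. Of 22 actin regulators, 12 rose and 3 fell, with a median of 0.68. Capg, Msn, Myo1f and Rac2 rose by 1.84, 1.63, 1.49 and 1.47, and Cyfip2 and Hax1, both also found outside leukocytes, fell by 0.89 and 0.62, while 1 fell without an array of batch 1 or batch 3. Of 20 further leukocyte surface genes, 8 rose and 1 fell with a median of 0.29, led by Cd52 (2.97), Ly6e (1.51), Gpr65 (1.45) and Selplg (0.88). Evi2a fell by 0.82 from a high control mean of 9.47, and which cells of the cord express it was not tested. The count of 8 became 5 without an array of batch 2 or batch 3. Of the genes named from these lists, Jak3, Fgr, Fyn, Yes1, Klra2, Cd5, Hax1, Ebf1 and Ptprcap did not pass without an array of batch 3 (limma adjusted p 0.0561 to 0.196).

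Markers listed by cell type moved beside the members to unequal degrees, and whether other cell types also express them was not tested. Over all genes 9.19% rose and 13.5% fell, so a single gene that passed in a short list says little about its cell type. All 8 markers of macrophages and microglia rose, with a median log2 change of 2.05, and their mean log2 signal was 8.34 to 9.00 on EAE arrays, against 6.06 to 6.17 on control arrays. Most of these markers, Lyz2 and Mpeg1 among them, are also on the list of PU.1 targets, so those lists are not separate observations. Of 8 neutrophil markers 5 rose, with a median log2 change over the list of only 0.52. The largest rises were S100a8 by 4.54 and S100a9 by 3.40. The list's mean was 6.77 to 7.21 in EAE, against 5.50 to 5.56 in control. Without an array of batch 1 or batch 3, 3 of those neutrophil markers rose.

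Of 9 T cell markers 3 rose, among them Cd3e (0.66) and Cd28 (0.52), with a list mean of 5.59 to 5.74 in EAE, against 5.38 to 5.46 in control. Without an array of batch 3, 0 of the T cell markers passed. Some T cell markers were dim, down to signal percentile 4.23 of all probe sets, so a change may not register there. Of 5 natural killer cell markers 1 rose, Klrd1, and 0 did without an array of any of batches 1, 2 and 3. Among B cell markers, 0 of 6 rose or fell, their mean being 5.83 to 5.89 in EAE, against 5.74 to 5.98 in control, and 0 of 6 mast cell and basophil markers and 0 of 2 platelet markers passed. The part of any of these cell types in the members' change was not tested.

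Of the cells of the cord itself, 3 of 6 neuronal markers fell with a median of -0.57, and 1 to 5 of them fell with 1 array left out. Of 5 oligodendrocyte markers 1 fell, of 4 astrocyte markers 1 rose, and of 6 endothelial markers 1 rose, which was 0 without an array of batch 1 or batch 3. With 9.19% of all genes higher and 13.5% lower, these single genes are not read as results about those cell types. The oligodendrocyte marker Cnp was dim, at signal percentile 9.37 of all probe sets, so a change may not register there. The 3 red blood cell markers did not pass, with a mean of 5.31 to 6.45 in EAE, against 5.48 to 5.62 in control.

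**Figure D4:**
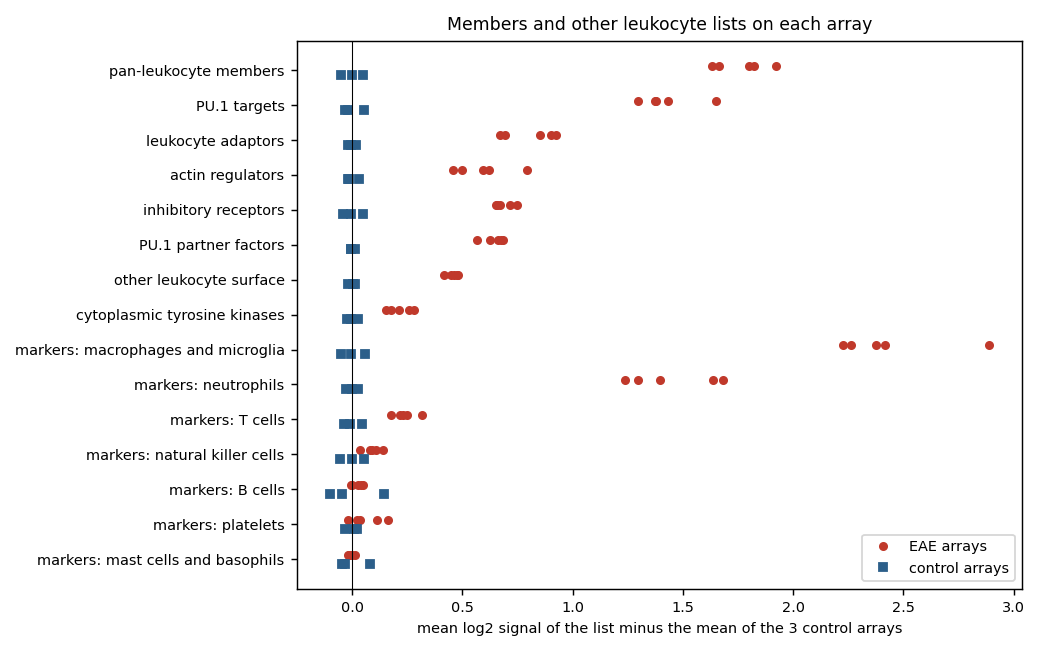
Mean log2 signal of the members, of the 7 lists and of blood cell marker lists on each array, less the mean of the 3 control arrays, with EAE arrays as circles above control arrays as squares. The members sit at 1.63 to 1.92 in EAE, and the macrophage and microglia markers reach 2.89 in EAE array 3.

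The genes nearest to the members' mean profile over the 8 arrays, by root mean square difference of log2 signal less the control mean, were Gusb (0.0856), Casp4 (0.102), C1ra (0.113), Ifi207 (0.117), Xdh (0.117) and Msn (0.124). Each rose, by 1.63 for Msn at the least and by 1.88 for Xdh at the most. They were picked for lying near a profile that rises, so a rise of about that size was fixed by the choice. Gusb encodes the lysosomal beta-glucuronidase, Casp4 an inflammatory caspase, C1ra a complement protease and Msn moesin, which ties membrane proteins to actin. The members themselves lay farther from their own mean, at 0.192 for Cd48 to 0.674 for Cd53. Members were not picked by distance, so that contrast also follows from how the genes were chosen.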

How the data were processed

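RNA of whole spinal cord was hybridised to Affymetrix MG U74Av2 arrays. The deposited log2 values were made by the authors in Partek Genomics Suite with RMA, quantile normalization and adjustment for GC content, and their versions are not given in the sources used here. They were not normalized again. After 66 array control probe sets were left out, 12422 remained. Of these, 10833 had 1 gene symbol, 396 several and 1193 none. Of the probe sets with 1 symbol, 10817 matched RefSeq (GRCm38.p6) by Entrez identifier.

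Groups and batches came from the labels. Changes came from limma 3.58.1 under R 4.3.3 (lmFit, eBayes, 3.05 prior degrees of freedom), treatment and batch being its terms, as the methods' analysis of variance had. Tests were two-sided, and p was adjusted by Benjamini-Hochberg over all 12422 probe sets at 0.05. Pair differences used exact permutation of group labels. The fit was tested on simulated data. The paired numbers come from the labels' batch, and same-numbered deviations correlated at 0.302, -0.231 and 0.412 in batches 1 to 3. Python 3.11.15, pandas 2.3.3 and matplotlib 3.10.9 were used.

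Members and lists were chosen with earlier results of these data known. Every member probe set is described. Per list, up to 4 genes with the largest rise and up to 2 with the largest fall were named, at most 2 per marker list, and the 6 nearest genes. A gene's brightest probe set stood for it.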

Additional observations from a re-analysis of the deposited data

Results flagged for a closer look

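Of 51 sets of EAE values examined for a single array far from the others, 1 stood apart. The mean log2 signal of the macrophage and microglia markers, less the control mean, was 2.89 in EAE array 3, against 2.42 in the next array and 2.23 in the lowest. Chance alone sets apart about 1 group in 20. EAE array 3 was also the highest EAE array for 6 of the 9 members by their brightest probe sets, but the lowest on the other Laptm5 probe set.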

How the results depend on the processing

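The count of member probe sets higher in EAE was 11 without the replicate block, 12 with batch as a random replicate block (the second Lcp1 probe set passed, adjusted p = 0.0335), 8 among brighter probe sets only, where fewer were tested, and 11 under a trended prior, median centring, further quantile normalization, array weights and an adjusted p under 0.01. With 1 array left out it was 11, and 0 were lower under any of these, but these are only 3 distinct fits besides the full one, since EAE arrays 4 and 5 do not enter the fitted changes. Without moderation of the variances it was 0, and over all probe sets 1 was higher and 0 were lower. With the stricter threshold of 0.01 the array as a whole had 540 higher and 290 lower probe sets. Leaving out 1 array gave 521 to 1026 higher and 225 to 1412 lower, the fewest without either array of batch 3 (521 and 225) and 571 lower without either array of batch 2. Leaving out either array of a shared batch removes that batch from the estimate. Without the replicate block, an alternative chosen after seeing the data, the count was 11 without EAE array 4, 11 without EAE array 5 and 10 without EAE arrays 1 and 4. Pairs in which the member changed more than its relative numbered 0 to 18. The third Ptprc probe set, at -0.01, was 0.047 without the replicate block and 0.035 with a random replicate block. It was -0.039 to 0.032 with 1 array left out, and 0.032 without EAE arrays 1 and 4, also chosen after seeing the data. Without the replicate block it was 0.059 without EAE array 4 and 0.10 without EAE arrays 1 and 4. Taking each gene by the mean of its probe sets, all 9 genes were higher, by 0.92 in Lcp1, 1.37 in Ptprc and 1.82 in Laptm5, and all 18 pairs kept their call.

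The number of arrays limits the precision: with 3 control arrays and 2 residual degrees of freedom, calls lean on the spread shared across probe sets.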
